A study of Mus musculus with 4 samples.

Results

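The 9 genes described here encode the enzymes that write and remove DNA methylation in the mouse: the methyltransferases Dnmt1, Dnmt3a and Dnmt3b, the methyltransferase-like cofactor Dnmt3l, the hemimethylated-DNA reader Uhrf1, the dioxygenases Tet1, Tet2 and Tet3, and the thymine DNA glycosylase Tdg. They were chosen by gene symbol from the 37620 genes of the count table, with earlier results of these data known, and each matched 1 gene. RNA was sequenced from mouse embryonic stem cells (mESCs) in which endogenous CTCF, a DNA-binding protein that organizes chromatin loops, carried an auxin-inducible degron and was degraded with auxin in both lines. The cells then depended on a CTCF expressed from a vector, either the wild-type protein (WT_CTCF) or a protein mutated at T668 that cannot receive the sugar O-GlcNAc at that residue (MUT_CTCF). Both lines grew on gelatin in medium with 15% serum and 1000 U/mL LIF, which keeps mESCs in self-renewal. Each line was a clone picked for a CTCF level near that of the endogenous protein, so the mutation and the clone cannot be told apart. The study sequenced 2 biological replicates per line, 4 libraries in all. The edgeR p-values measure spread between those libraries, with the spread of each gene drawn towards that of other genes. There were 2 residual degrees of freedom, and 55.9 in total for the median gene.

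DNMT1, brought to newly replicated DNA by UHRF1, copies methylation onto the daughter strand, whereas DNMT3A and DNMT3B methylate unmodified sites and DNMT3L, which has no catalytic activity of its own, stimulates them. The TET enzymes oxidize 5-methylcytosine, and TDG excises the later oxidation products so that base excision repair can restore cytosine. TET proteins bind OGT, the transferase that adds O-GlcNAc to proteins, and CTCF itself binds many of its sites less well when their CpGs are methylated. In serum, mESCs hold a highly methylated genome and express Dnmt3l together with Dnmt3b, Tet1 and Tet2.

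Libraries held 40524694 to 40977464 counts, and 16264 genes with enough counts were tested. Between replicates, counts differed beyond sampling noise in each line (chi-square per degree of freedom 3.64 in WT_CTCF and 4.35 in MUT_CTCF), so that no library was a copy of another. Summed expression of 8 pluripotency genes was 6322 to 6376 CPM (counts scaled to a library of 1000000) over the 4 libraries. Against this, 8 fibroblast markers summed to 45.6 to 51.8 CPM and 7 primitive endoderm markers to 15.1 to 20.7 CPM. Fgf5, a marker of primed cells, was at 0 in every library. A list of 8 formative and primed markers, with Fgf5 among them, summed to 116 to 126 CPM. Most of that came from Foxd3 and Sall2 (WT_CTCF means of 3060 and 1463 normalized counts). No other marker of the list had a WT_CTCF mean above 190.4. A list of 6 mesoderm and neural markers summed to 376 to 416 CPM, most of it from Tubb3 (WT_CTCF mean of 13749 normalized counts). Apart from Tubb3 and Nes (2575), no marker of that list had a WT_CTCF mean above 241.5. Ctcf itself had 18302 and 18669 normalized counts in WT_CTCF and 18791 and 19325 in MUT_CTCF (log2 fold change 0.04, edgeR adjusted p = 0.499). A count per gene cannot show the mutation, and how many of these reads came from the vector was not tested.

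The sequences around the start sites of the 3 members with the smallest p-values are shown because these genes gave the clearest differences described below and so that their CpGs, the dinucleotide these enzymes act on, can be compared. Each is a RefSeq window (GRCm38.p6 table) of 300 bases, from 250 bases before to 50 bases after an annotated start, placed on mm9 by its 1 exact match, and written in lower case with every CpG in capitals. For Dnmt3l, RefSeq gives 3 starts, all on the plus strand, at chr10:77504782-77505081, chr10:77512337-77512636 and chr10:77517830-77518129, the first also inside the span of the gene Aire on the opposite strand.
Dnmt3l window 1: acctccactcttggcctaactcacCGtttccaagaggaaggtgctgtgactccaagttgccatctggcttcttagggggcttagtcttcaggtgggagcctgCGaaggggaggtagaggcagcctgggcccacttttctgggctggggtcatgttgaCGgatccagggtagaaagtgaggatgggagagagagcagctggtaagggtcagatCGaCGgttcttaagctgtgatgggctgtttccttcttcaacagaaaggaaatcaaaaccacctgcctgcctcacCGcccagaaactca
Dnmt3l window 2: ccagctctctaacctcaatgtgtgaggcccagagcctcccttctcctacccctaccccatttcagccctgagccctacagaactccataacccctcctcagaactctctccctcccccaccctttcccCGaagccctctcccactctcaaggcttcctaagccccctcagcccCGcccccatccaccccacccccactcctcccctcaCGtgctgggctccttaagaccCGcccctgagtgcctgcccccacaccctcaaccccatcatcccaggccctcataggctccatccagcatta
Dnmt3l window 3: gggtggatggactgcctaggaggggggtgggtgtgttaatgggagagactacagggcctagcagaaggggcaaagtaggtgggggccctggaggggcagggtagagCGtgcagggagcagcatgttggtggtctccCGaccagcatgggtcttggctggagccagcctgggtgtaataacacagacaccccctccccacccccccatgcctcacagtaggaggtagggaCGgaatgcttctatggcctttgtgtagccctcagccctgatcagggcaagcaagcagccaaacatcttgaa
The Tet3 window lies at chr6:83391623-83391922 on the minus strand, at the 5′ end of the gene.
Tet3 window 1: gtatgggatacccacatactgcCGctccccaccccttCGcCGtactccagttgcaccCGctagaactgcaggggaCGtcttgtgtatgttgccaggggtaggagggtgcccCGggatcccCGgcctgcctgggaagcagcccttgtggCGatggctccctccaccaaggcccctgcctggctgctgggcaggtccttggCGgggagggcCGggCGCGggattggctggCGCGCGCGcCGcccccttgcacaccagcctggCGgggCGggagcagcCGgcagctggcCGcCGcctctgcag
For Dnmt3a, the window shown is the one farthest downstream in the gene, at chr12:3891494-3891793 on the plus strand.
Dnmt3a window 3: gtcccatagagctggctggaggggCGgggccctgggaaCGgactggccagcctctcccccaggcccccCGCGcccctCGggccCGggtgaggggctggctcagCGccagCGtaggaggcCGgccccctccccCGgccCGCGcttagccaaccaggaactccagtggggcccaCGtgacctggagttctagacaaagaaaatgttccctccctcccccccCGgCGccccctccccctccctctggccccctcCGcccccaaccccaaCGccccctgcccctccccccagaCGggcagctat

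Dnmt3l windows held 6, 4 and 3 CpGs in that order, against a median of 7 over 32851 RefSeq windows, and Tet3 held 22 and the Dnmt3a window shown 18. The other windows of members ranged from 2 CpGs, at the distal Dnmt1 start, to 57 at Tet2, and the remaining Dnmt3a windows held 46 and 47. A CTCF core, searched on both strands as CCA, AG and GGC with 2 free bases between each, was in 0 of the 16 member windows and in 2.426% of all windows. An E2F motif, searched as TTTNNCGC on both strands, was found 3 times in Dnmt1 window 1, where a pair of matches overlap, once in each of the Uhrf1 windows and in 5.169% of all windows. These are matches of letters only, and binding was not analysed here.

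Dnmt3l was the only member whose transcript differed between the lines at an adjusted p under 0.05, and it fell by 21.8% in MUT_CTCF. Dnmt3l (chr10:77504692-77526367, mm9, plus strand) had 3488 and 3552 normalized counts with wild-type CTCF, and 2758 and 2746 with the mutated protein. Both MUT_CTCF values were far below both WT_CTCF values, and the replicates of a line lay close together (3520 ± 45.8 against 2752 ± 8.42, SD, n = 2 each). The log2 fold change was -0.36 (SE 0.05, 95% interval -0.46 to -0.25, edgeR quasi-likelihood adjusted p = 2.89e-06), a fold of 0.728 to 0.840. This places 1 of 9 members past the threshold, and it was lower, where 3.17% of all tested genes passed it, 1.56% as higher and 1.61% as lower. Dnmt3l stood at rank 29 by p among all tested genes, and 31 of the 262 genes called lower had a larger fall. By the criterion of the study, an unadjusted p under 0.05 with a change over 2-fold, 0 of 9 members qualified, against 1.3% of all tested genes.

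Dnmt3l's value was stable, with a log2 fold change of -0.37 to -0.34 over all 16 alternatives tried, but its call needed both MUT_CTCF libraries under edgeR. Without MUT_CTCF replicate 1 its adjusted p was 0.319, and without MUT_CTCF replicate 2 it was 0.371. In each of those fits edgeR called 0 genes of the whole table, with 1651 and 1585 genes at an unadjusted p under 0.05, whereas DESeq2 on the same 3 libraries called 73 and 86 genes and gave Dnmt3l adjusted p = 0.0153 and 0.0178. DESeq2 in turn lost the call without WT_CTCF replicate 1 (adjusted p = 0.0624) or replicate 2 (0.116), where edgeR kept it.

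**Figure D1:**
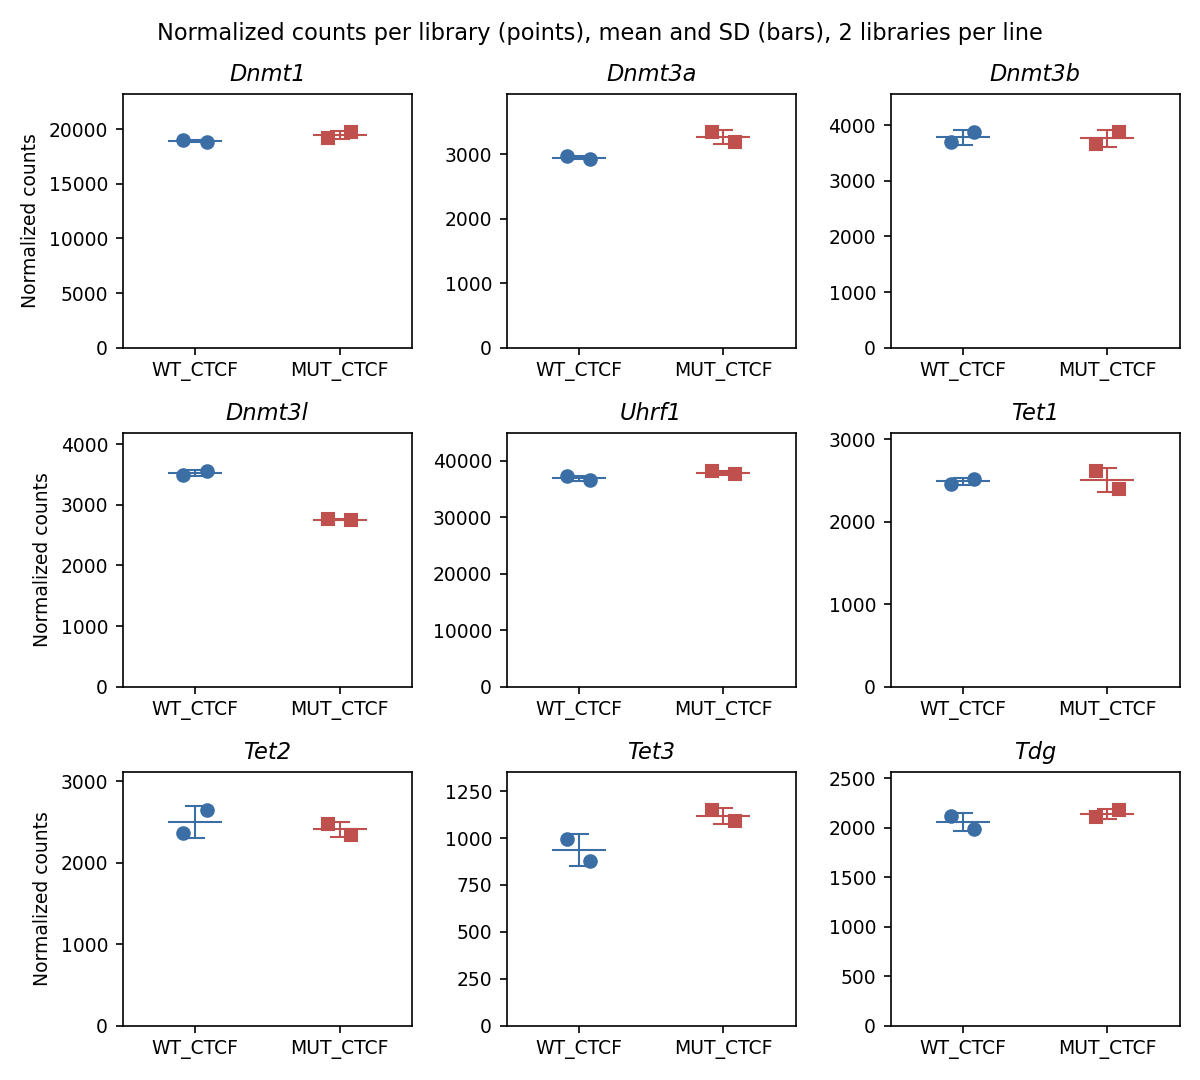
Normalized counts (vertical axes from 0, counts scaled to the mean library) of each gene in the 2 WT_CTCF libraries (circles) and the 2 MUT_CTCF libraries (squares), with the mean as a long bar and the SD as capped bars. The Dnmt3l points separate widely (3488 and 3552 against 2758 and 2746), while Dnmt3b, Tet1, Tet2 and Tdg overlap between lines.

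The maintenance pair, Dnmt1 and Uhrf1, was the most abundant per length of exon and did not differ past the threshold. Dnmt1 (chr9:20711650-20757317, minus strand) had 18971 and 18832 normalized counts in WT_CTCF and 19225 and 19724 in MUT_CTCF. Uhrf1 (chr17:56442744-56462909, plus strand) had 37237 and 36564 in WT_CTCF and 38160 and 37685 in MUT_CTCF. In both genes every MUT_CTCF library was above every WT_CTCF library, by margins that did not pass the test. The log2 fold changes were 0.04 (SE 0.03, 95% interval -0.01 to 0.10, adjusted p = 0.506) for Dnmt1 and 0.04 (SE 0.02, 95% interval -0.01 to 0.09, adjusted p = 0.463) for Uhrf1, so that the intervals end at a fold of 1.07 for Dnmt1 and 1.06 for Uhrf1.

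Of the catalytic de novo enzymes, Dnmt3a and Dnmt3b did not move together with Dnmt3l. Dnmt3a (chr12:3806007-3914443, plus strand) had 2968 and 2933 normalized counts in WT_CTCF and 3342 and 3196 in MUT_CTCF, a log2 fold change of 0.15 (SE 0.05, 95% interval 0.04 to 0.25, unadjusted p = 0.00604, adjusted p = 0.113). Its lines did not overlap, and the mean was 10.8% higher in MUT_CTCF, but the difference did not pass the adjusted threshold. Dnmt3b (chr2:153475186-153513466, plus strand) had 3692 and 3874 in WT_CTCF and 3654 and 3871 in MUT_CTCF (3783 ± 129 against 3762 ± 153, SD, n = 2 each). The Dnmt3b lines overlapped almost completely, with a log2 fold change of -0.01 (SE 0.05, 95% interval -0.11 to 0.09, adjusted p = 0.968). Gm14490, a locus beside Dnmt3b that is annotated as a pseudogene, had only 11, 7, 30 and 11 counts, and the Dnmt3l pseudogene Dnmt3l-ps1 had 1 count in the 4 libraries together, so that few uniquely mapped reads fell on either.

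The 3 TET genes gave different values. Tet1 (chr10:62267318-62361866, minus strand) had 2465 and 2526 normalized counts in WT_CTCF and 2614 and 2404 in MUT_CTCF, with a log2 fold change of 0.01 (SE 0.06, adjusted p = 0.972). Tet2 (chr3:133126643-133207354, minus strand) had 2363 and 2643 in WT_CTCF and 2476 and 2344 in MUT_CTCF, with a log2 fold change of -0.05 (SE 0.06, adjusted p = 0.748). In both genes the lines overlapped, and the 95% intervals were -0.11 to 0.12 for Tet1 and -0.17 to 0.06 for Tet2. Tet3 (chr6:83312367-83391672, minus strand) had 995.6 and 877.1 in WT_CTCF and 1148 and 1089 in MUT_CTCF (936.3 ± 83.8 against 1119 ± 41.6, SD, n = 2 each). Here the MUT_CTCF libraries were the higher, with a mean 19.5% above WT_CTCF. Its log2 fold change of 0.26 (SE 0.09, 95% interval 0.09 to 0.43, unadjusted p = 0.00396) missed the adjusted threshold (adjusted p = 0.0896), and leaving out WT_CTCF replicate 1 made it 0.35, whereas leaving out replicate 2 made it 0.17.

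Tdg (chr10:82092573-82113544, plus strand), the glycosylase that acts after TET oxidation, had 2122 and 1993 normalized counts in WT_CTCF and 2109 and 2178 in MUT_CTCF. The lines overlapped, with a log2 fold change of 0.06 (SE 0.06, 95% interval -0.06 to 0.18, adjusted p = 0.732). Of its exon bases, 6.83% are shared with Glt8d2 on the opposite strand, against 2.24% for Dnmt3l with Aire and 0.799% for Dnmt3a with Gm10485. Since the strand setting of the counting was not given in the sources used here, reads there cannot be assigned to one gene of the pair.

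Over the 9 members, the 2 lines did not overlap in 5, against 44.7% of all tested genes. The MUT_CTCF libraries were the higher in 4 of these (Dnmt1, Dnmt3a, Uhrf1 and Tet3, against 22.3% of all genes) and the lower in Dnmt3l (against 22.3%). At an unadjusted p under 0.05 stood 3 members (Dnmt3l, Tet3 and Dnmt3a), against 15.3% of all tested genes. The median log2 fold change of the members was 0.04, and that of all tested genes 0.00. Their median size regardless of sign was 0.05 against 0.11 for all genes, and their median SE was 0.05 against 0.11, so that the members were measured more precisely than the typical gene.

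**Figure D2:**
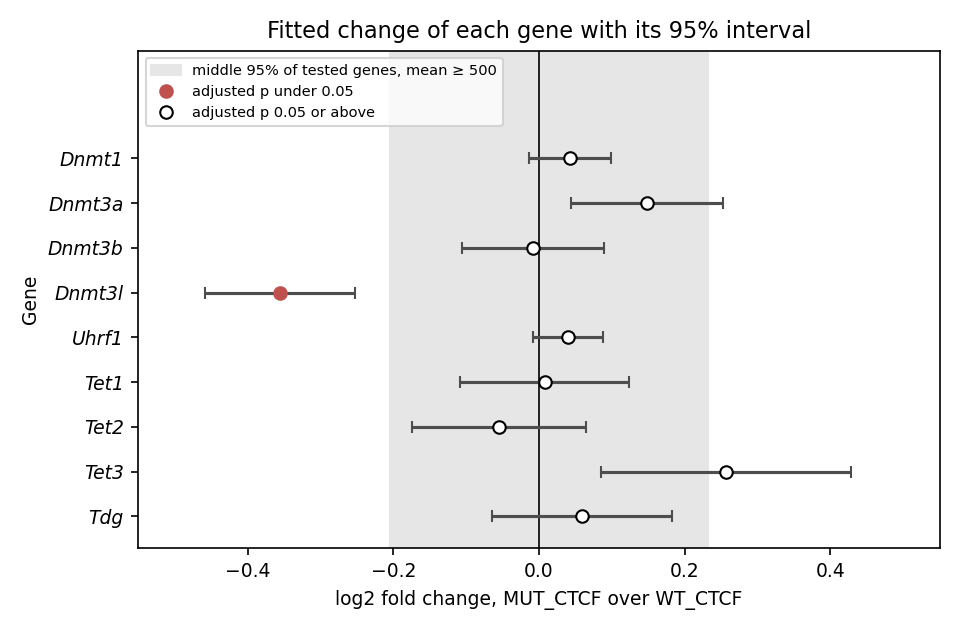
Log2 fold change of MUT_CTCF over WT_CTCF (horizontal axis) for each gene, with its 95% interval as a bar; the grey band holds the middle 95% of the 8281 tested genes with a mean of at least 500 normalized counts (-0.20 to 0.23). The Dnmt3l interval lies wholly below the band, Tet3 is centred just above it at 0.26, and the other 7 genes are centred inside it.

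Compared per length of exon, the levels spanned from the maintenance enzymes to Tet3. Uhrf1 was the highest at 215 RPKM, that is CPM per kilobase of exon (mean of 4 libraries), followed by Dnmt1 at 89.4 RPKM. Dnmt3l came next, at 28.6 and 29.1 RPKM in WT_CTCF and 22.6 and 22.5 RPKM in MUT_CTCF, and it stayed above Dnmt3b (18.1 RPKM) in every library in spite of its fall. Below these lay Tdg at 9.58, Tet2 at 6.54, Dnmt3a at 4.58, Tet1 at 4.17 and Tet3 at 2.27 RPKM. Dnmt3a and Tet1 were the only neighbours in this order whose ranges over the 4 libraries overlapped. The place of Dnmt3a depends on the length used, because its annotated exons sum to 16642 bases over 18 transcripts while its longest coding sequence has 2724, and with coding length it reached 28.0 RPKM and rank 6. Tdg, at 40.8 RPKM by coding length, then passed Dnmt3b at 35.9 RPKM.

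**Figure D3:**
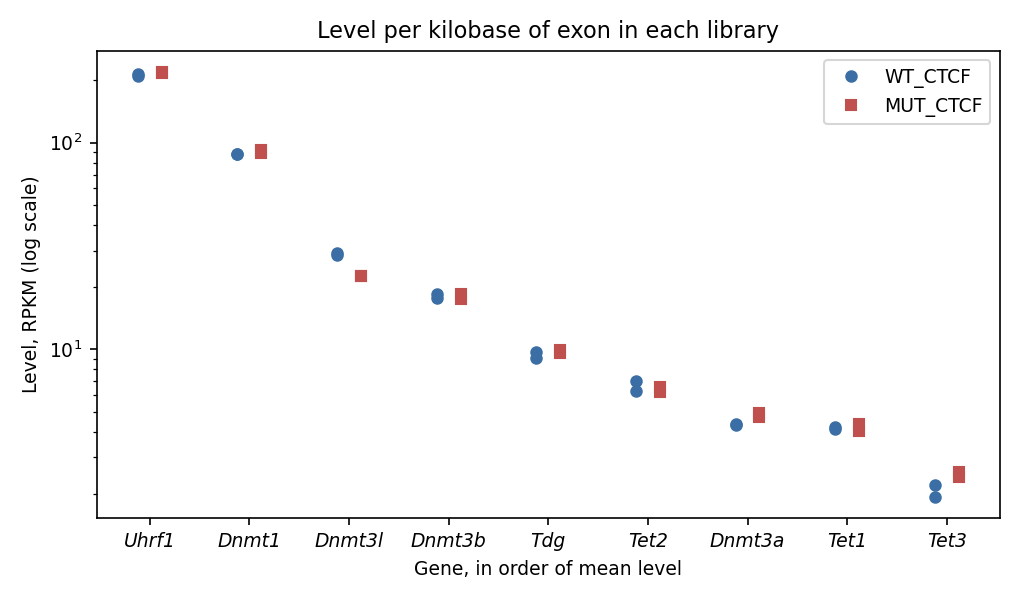
Level of each gene in RPKM (CPM per kilobase of exon, vertical log axis) in the 2 WT_CTCF libraries (circles) and the 2 MUT_CTCF libraries (squares), ordered by the mean of 4 libraries. Levels run from 215 for Uhrf1 to 2.27 for Tet3, and Dnmt3l keeps the third place in both lines.

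The balance between members was followed by 7 ratios of per-length levels within a library. The ratio of Dnmt3l to the sum of Dnmt3a and Dnmt3b was 1.29 and 1.27 in WT_CTCF and 1.01 and 0.967 in MUT_CTCF (1.28 ± 0.0165 against 0.987 ± 0.0282, SD, n = 2 each). The size of this ratio depends on the length used (1.64 in WT_CTCF with the longest transcript), so its distance from 1 is not read. Dnmt3a to Dnmt3b was 0.247 and 0.232 in WT_CTCF and 0.281 and 0.253 in MUT_CTCF. Tet3 to the sum of Tet1 and Tet2 was 0.212 and 0.172 in WT_CTCF and 0.232 and 0.235 in MUT_CTCF. These 3 ratios did not overlap between lines, but 2 libraries against 2 cannot give a two-sided exact permutation p below 0.333 (0.778 after Benjamini-Hochberg adjustment over the 7), so that none could pass. Uhrf1 to Dnmt1 was 2.41 in both lines, and the ratio of summed TET to summed Dnmt1, Dnmt3a and Dnmt3b was 0.117 in WT_CTCF and 0.115 in MUT_CTCF. Tet1 to Tet2 was 0.625 and 0.651, and Tdg to summed TET 0.729 and 0.749, in WT_CTCF and MUT_CTCF in that order, and the libraries of the lines overlapped in these 4 ratios.

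The proteins that work with these enzymes were followed as 7 lists, which together held 110 tested genes. Of these, 3 were called higher and 4 lower, 6.36% of the lists against 3.17% of all tested genes, with a median log2 fold change of 0.01. Among 17 partners of maintenance methylation, Ehmt2 (log2 fold change 0.12, adjusted p = 0.0326) and Kdm1a (0.10, adjusted p = 0.0326), a histone H3K9 methyltransferase and a histone demethylase, rose. In the same list Zfp57, the zinc finger protein that holds methylation at imprinted regions, fell by 0.17 on the log2 scale (SE 0.03, adjusted p = 1.25e-04), with 16026 and 15599 normalized counts in WT_CTCF and 14041 and 14050 in MUT_CTCF. Trim28, the corepressor that ZFP57 recruits, fell by 0.07 (SE 0.02, adjusted p = 0.0142). The remaining 13 partners did not pass, among them Dppa3, an inhibitor of UHRF1 (log2 fold change -0.08, SE 0.10, adjusted p = 0.787). Ehmt2 was the only gene called among 12 de novo partners (list median 0.00), and Zfp57 the only one among 13 methyl-CpG readers (list median 0.04).

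On the demethylation side, 1 of 21 tested TET partners and cofactor enzymes was called (list median 0.00). Idh1, which makes the 2-oxoglutarate that TET enzymes consume, fell by 0.12 on the log2 scale (SE 0.03, adjusted p = 0.0100). Ogt had 5571 and 6011 normalized counts in WT_CTCF and 5362 and 5473 in MUT_CTCF, a log2 fold change of -0.10 (SE 0.04, adjusted p = 0.255), and Cxxc4 had too few counts to be tested. Of 23 base excision repair genes (median 0.04), Neil2, a DNA glycosylase, rose by 0.74 (SE 0.19, adjusted p = 0.0190), from 131.2 and 131.3 normalized counts to 213.2 and 225.1. Of 13 genes of the S-adenosylmethionine cycle, which supplies the methyl donor, 0 were called by edgeR (median 0.00). The smallest p-values there belonged to Ahcyl1 (log2 fold change 0.10, adjusted p = 0.299, unadjusted p = 0.0385), Ahcyl2 (-0.12, adjusted p = 0.526) and Gnmt (1.02, adjusted p = 0.539).

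Germline genes that DNA methylation keeps silent in somatic cells gave no common direction. Of 19 tested, 1 was called, Tex19.1, which fell by 0.17 on the log2 scale (SE 0.03, adjusted p = 4.03e-04), and the list median was 0.01. The 7 calls among these lists depended on the filter, the tool and the libraries. Without the filter on low counts, which left 29 genes called in all, their adjusted p-values were 0.0895 (Zfp57) to 0.402 (Ehmt2), and with either MUT_CTCF library left out edgeR called none of them. With either WT_CTCF library left out, Zfp57 (adjusted p up to 0.0332) and Tex19.1 (up to 0.0351) stayed under the threshold and the other 5 did not (0.0675 to 0.357). Under DESeq2, Zfp57 (3.86e-05), Tex19.1 (0.00076) and Idh1 (0.0180) stayed under 0.05, and Ehmt2 (0.136), Kdm1a (0.0924), Trim28 (0.0674) and Neil2 (0.0978) did not.

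**Figure D4:**
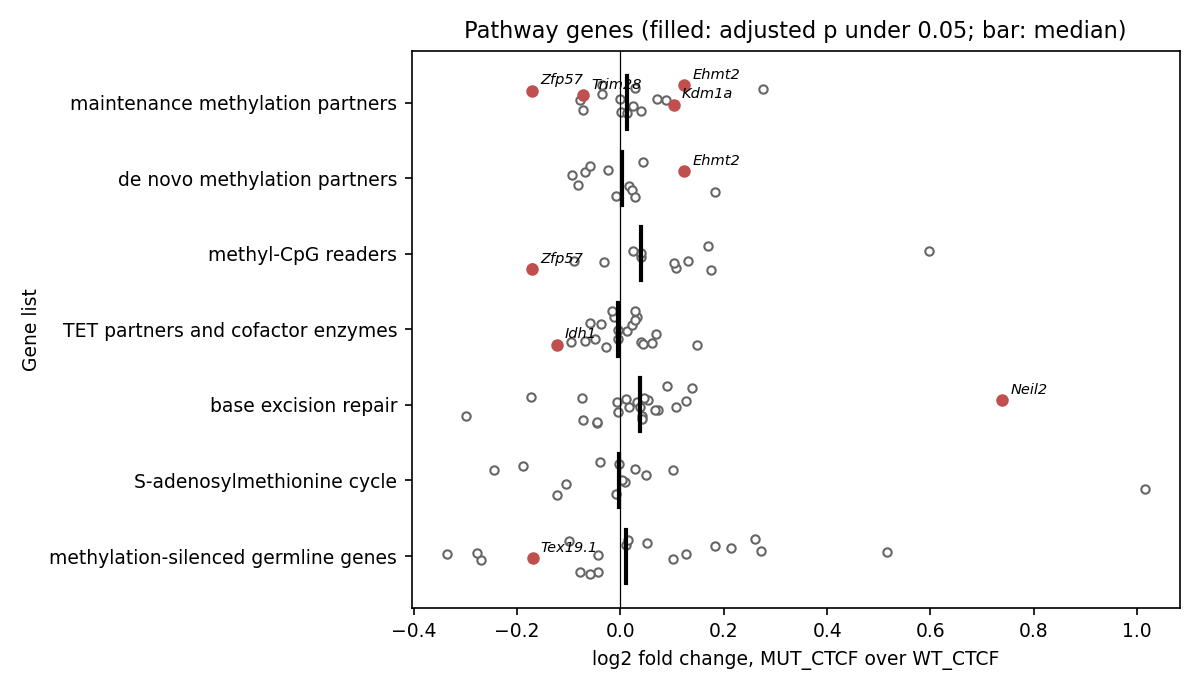
Log2 fold change of MUT_CTCF over WT_CTCF (horizontal axis) for each tested gene of the 7 lists (vertical axis), with a filled point for an adjusted p under 0.05 and a black bar at the list median. List medians lie between 0.00 and 0.04, and the named points are the genes called, with Ehmt2 and Zfp57 each on 2 lists.

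Since DNMT1 and UHRF1 act in S phase and Dnmt3l is expressed in undifferentiated cells, genes of those states were read alongside. Of 27 S phase genes, 1 was called, the replicative helicase subunit Mcm5, which fell by 0.08 on the log2 scale (adjusted p = 0.0178), and the list median was 0.01. Of 8 pluripotency genes, Sox2 rose by 0.10 (adjusted p = 0.0358) and 0 were called lower, with 5 of the 8 fitted higher. Among those not called, Klf4 was higher (log2 fold change 0.10, edgeR unadjusted p = 0.00366). Pou5f1 (-0.07, unadjusted p = 0.00655) and Zfp42 (-0.06, unadjusted p = 0.0192) were lower. Of 6 mesoderm and neural genes, Tubb3, a neuronal tubulin, fell by 0.19 (adjusted p = 5.01e-05), while 3 of the 6 were fitted higher and the list median was -0.01. The summed level of the list was 376 to 382 CPM in MUT_CTCF and 416 CPM in both WT_CTCF libraries, and Tubb3 alone went from 13725 and 13773 normalized counts to 11957 and 12207. Mcm5 and Sox2 were not called with any 1 library left out. Their log2 fold changes then ranged from -0.10 to -0.07 for Mcm5 and from 0.08 to 0.11 for Sox2. Tubb3 lost its call without the filter (edgeR adjusted p = 0.0701) or with either MUT_CTCF library left out.

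Formative and primed markers gave 0 calls by edgeR among 6 tested (list median 0.14), and summed to 121 to 123 CPM in WT_CTCF and 116 to 126 CPM in MUT_CTCF. The largest counts in that sum were those of Foxd3 and Sall2, with WT_CTCF means of 3060 and 1463 normalized counts. The lines did not overlap in 4 of the 6, against 44.7% of all tested genes. Otx2, Sox3 and Fgf15 were higher in MUT_CTCF (by 46%, 37% and 21%) and Lef1 was lower (change of -13.5%). Sox3 (log2 fold change 0.46, unadjusted p = 0.00881, adjusted p = 0.139), Otx2 (0.55, adjusted p = 0.260) and Foxd3 (-0.08, adjusted p = 0.600) had the smallest p-values. Among 5 tested primitive endoderm markers 0 were called, with Gata6 at 0.95 (unadjusted p = 0.00289, adjusted p = 0.0733), Sox17 at 0.75 (adjusted p = 0.259) and Pdgfra at 0.37 (adjusted p = 0.504). Of the 5, 4 were fitted higher. Dab2, with the highest WT_CTCF mean of the list, was fitted lower (-0.21, from means of 227 to 196 normalized counts). Foxa2 and Sox7 had too few counts to be tested. The list summed to 15.1 and 15.7 CPM in WT_CTCF and 16.2 and 20.7 CPM in MUT_CTCF. Among 5 tested fibroblast markers 0 were called, with Col3a1 at -1.52 (unadjusted p = 0.0353, adjusted p = 0.288), Thy1 at 0.20 (adjusted p = 0.334) and Col1a1 at 0.15 (adjusted p = 0.765). The part of these cell states in the Dnmt3l result was not tested.

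Of the 6 tested genes around Dnmt3l, 3 on each side by position, the 2 that were called, Aire and Pfkl, were higher in MUT_CTCF. Aire, a transcription factor best known from the thymus, lies on the opposite strand, overlaps the 5′ end of Dnmt3l and starts 1663 bases from the Dnmt3l start. It had 130.2 and 164.4 normalized counts in WT_CTCF and 262.7 and 303.5 in MUT_CTCF, and rose by 0.94 on the log2 scale (SE 0.18, adjusted p = 4.35e-04). Beyond Aire, Pfkl, a phosphofructokinase of glycolysis whose start is 31864 bases upstream, had 6410 and 6310 in WT_CTCF and 7921 and 7960 in MUT_CTCF, and rose by 0.32 (SE 0.04, adjusted p = 6.70e-09). The other 4 did not pass, with log2 fold changes of 0.13 for 1810043G02Rik (adjusted p = 0.739), 0.07 for Icosl (0.843), -0.05 for D10Jhu81e (0.872) and -0.08 for Pwp2 (0.307). Of the 6 tested genes around Tet3, 1 was called, Mthfd2, a mitochondrial enzyme of folate metabolism whose start is 124072 bases away, which rose by 0.23 (SE 0.05, adjusted p = 9.54e-04). None of the 6 tested genes around Dnmt3a was called. Neighbours were picked after values of the table were seen. The calls of Aire (adjusted p = 0.157) and Mthfd2 (0.122) were lost without the filter on low counts, and those of Aire, Pfkl and Mthfd2 with either MUT_CTCF library left out (adjusted p 0.143 to 0.477), and Mthfd2 also lost its call without WT_CTCF replicate 2 (0.0529).

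**Figure D5:**
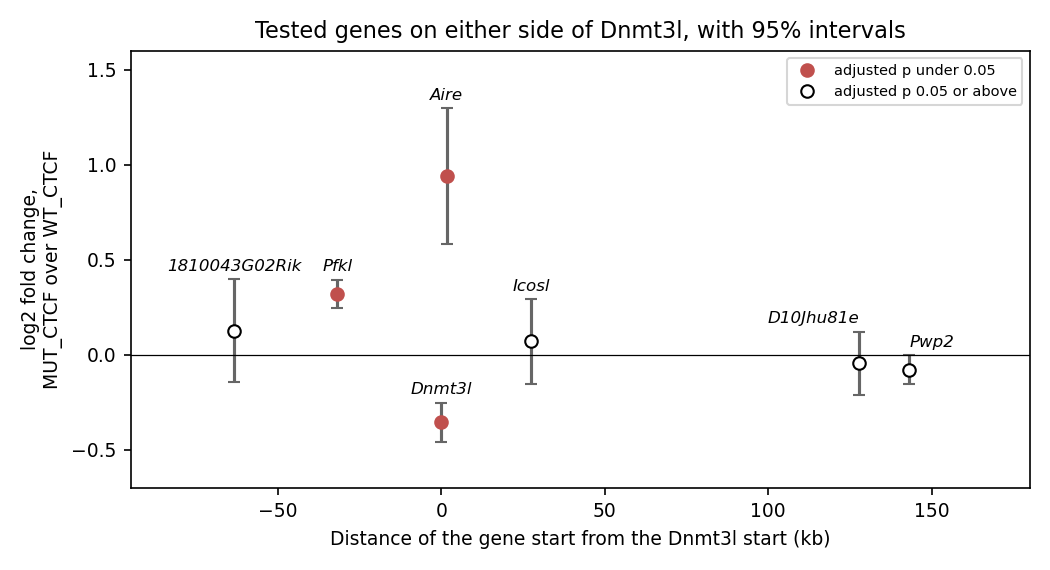
Log2 fold change of MUT_CTCF over WT_CTCF with its 95% interval (vertical axis) for the tested genes around Dnmt3l, placed by the distance of their start from the Dnmt3l start in kilobases (horizontal axis). Dnmt3l at -0.36 lies between Pfkl at 0.32 and Aire at 0.94, both higher in MUT_CTCF.

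The pattern most like that of Dnmt3l over the 4 libraries was sought among 11591 genes with a mean of at least 100 normalized counts, by the sum of squared differences of centred log2 counts. Tgm1, a transglutaminase, was the closest, with a sum of 1.83e-04, 2811 and 2850 normalized counts in WT_CTCF and 2201 and 2186 in MUT_CTCF. Fam83h (7.58e-04) and the nuclear body protein gene Sp110 (0.00107) followed. Since 2 libraries stood in each line, likeness here is a fall of like size with close replicates. The fall was 0.37 on the log2 scale for Tgm1 (adjusted p = 1.05e-05) and 0.36 for Sp110 (adjusted p = 0.0334), and Fam83h, at -0.33, did not pass (adjusted p = 0.185). Tgm1 was not called with either MUT_CTCF library left out (0.338 and 0.381), and Sp110 not with any 1 library left out (0.144 to 0.484) nor by DESeq2 (0.135).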

How the data were processed

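RNA was extracted with RNAzol from WT_CTCF and MUT_CTCF mESCs and sequenced (2 libraries per line). As the study's methods and labels state, the authors trimmed reads with Trim Galore 0.4.4, aligned them to mm9 with STAR, kept uniquely mapped reads and deposited whole-number counts per Ensembl gene from HTSeq 0.9.1. The authors' comparison table (fold changes, mean expression, p-values and false discovery rates) was not used. From the counts, genes were filtered (filterByExpr, minimum count 10, leaving 99.957% of counts), scaled by TMM (factors 0.994 to 1.01) and tested by edgeR 4.0.16's quasi-likelihood test in R 4.3.3, with Benjamini-Hochberg adjustment over 16264 genes and a threshold of 0.05. Counts were divided by effective library size and multiplied by its mean to give normalized counts. Names, exons and coordinates came from GENCODE M1, with 37205 IDs named. Alternatives were DESeq2 1.42.0 (no independent filtering), edgeR's exact test, other scalings and filters, halved counts, each library left out and a replicate block. Every member was named. From each list the genes called were named, or else the 3 smallest p-values, together with Ogt, Ctcf, Dppa3 and the 3 genes most like the member with the smallest p. The members and lists were chosen with earlier results of these data known. The fit was also run on counts simulated with the dispersions fitted to these data, which cannot show how well it suits 2 libraries per line.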

Additional observations from a re-analysis of the deposited data

How the results depend on the processing

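Among the 9 members, Dnmt3l was the only one called in the main analysis, and its direction held under all 16 alternatives. The replicate block gave 698 calls in place of 515 (514 shared), gave Tet3 a log2 fold change of 0.26 with adjusted p = 0.0486, so that 2 members were called, and moved no other member past the threshold. Same-numbered libraries did not deviate together (correlation -0.0057 across genes, 2 pairs). With only 2 pairs, this cannot decide whether the numbers mark a pairing. Genes called higher and lower were 131 and 114 under DESeq2 and 26 and 3 without a filter, and 152 were lower with library size only. With 1 library left out, edgeR and DESeq2 called 0 to 140 genes higher and 0 to 102 lower, and 0 to 1 members, and the lone library of a line was taken to vary like the other line.

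Dnmt3b was at 0.0043 with library size only. Leave-one-out ranges of the log2 fold change were -0.37 to -0.34 for Dnmt3l, -0.051 to 0.033 for Dnmt3b, -0.055 to 0.066 for Tet1, -0.13 to 0.028 for Tet2, -0.056 to 0.19 for Icosl, -0.21 to 0.048 for Foxd3, -0.27 to 0.81 for Pdgfra and -0.20 to 0.036 for Dppa3, so these 7 genes other than Dnmt3l changed sign. List medians ranged from -0.018 to 0.018 for TET partners (0.0078 with library size only), -0.0054 to 0.053 for germline genes, -0.030 to 0.097 for methyl-CpG readers, -0.0042 to 0.042 for base excision repair, -0.010 to 0.025 for de novo partners, -0.019 to 0.029 for maintenance partners and -0.025 to 0.021 for the S-adenosylmethionine cycle, so that the medians of all 7 pathway lists changed sign with some library left out.

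The study's criterion gave 154 genes higher and 58 lower, the adjusted threshold alone 253 and 262, and that threshold with a change over 1.5-fold 53 and 8. With the longest transcript as length, RPKM was 7.87 for Dnmt3a, 21.4 for Dnmt3b, 42.2 for Dnmt3l, 256 for Uhrf1 and 14.7 for Tdg, and WT_CTCF ratios were 0.348 for Dnmt3a to Dnmt3b, 1.64 for Dnmt3l to their sum, 2.87 for Uhrf1 to Dnmt1, 0.112 for TET to Dnmt and 1.11 for Tdg to TET. With coding length, RPKM was 96.8 for Dnmt1, 28.0 for Dnmt3a, 35.9 for Dnmt3b, 60.9 for Dnmt3l, 391 for Uhrf1, 10.03 for Tet1, 10.5 for Tet2, 5.03 for Tet3 and 40.8 for Tdg. The cause of these changes other than the length used was not tested. Tet3 had the fewest counts among the members, at 877.1 to 1148 normalized counts per library.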
